A study of Mus musculus with 4 samples.

Results

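Histones are the proteins around which nuclear DNA is wound, and the results concern their genes in mouse pachytene spermatocytes kept with or without BMH21. The genes were chosen by name, as symbols that begin with H1f, H2a, H2b, H3c, H3f, H4c or H4f, and 47 of the 15733 protein-coding genes in the deposited table met the rule. The study held 4 RNA-seq libraries. Suspensions of mouse testicular cells were treated ex vivo for 12 h with 2.5 µM BMH21, a DNA intercalator that blocks transcription by RNA polymerase I (2 libraries), or with DMSO, called mock (2 libraries), and cells at the pachytene stage of male meiosis were then sorted by Hoechst staining. The labels give no age, strain or genotype of the mice, and the design text calls the replicates biological.

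Genes of histones fall into kinds that make their mRNA in different ways. Replication-dependent (canonical) genes lie in clusters, are transcribed mainly in S phase, and give short mRNAs that end in a conserved stem-loop bound by SLBP in place of a poly(A) tail. Replacement variants such as H3.3 and H2A.Z are made throughout the cell cycle from polyadenylated mRNAs with introns in most cases. Male germ cells add variants of their own, such as the linker histone H1t and the testis forms of H2A and H2B, before most histones give way to transition proteins and protamines in spermatids. By name, 23 of the 47 genes were replication-dependent, 8 were replacement variants and 16 were germline histones.

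The stem-loop sites below were read from the GENCODE M21 transcripts and are given as DNA 5′ to 3′. They come from 4 replication-dependent genes and from 2 genes of the other kinds, H1f6 and H2ax. Capitals mark the stem-loop, and 5 bases stand on each side.
H1f6: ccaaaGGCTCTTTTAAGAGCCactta
H2ac18: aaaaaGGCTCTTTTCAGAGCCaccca
H2ac20: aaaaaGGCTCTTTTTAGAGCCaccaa
H2bc22: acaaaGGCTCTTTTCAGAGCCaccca
H4c3: caaaaGGCCCTTTTCAGGGCCaccca
H2ax: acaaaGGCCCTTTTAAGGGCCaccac
A search for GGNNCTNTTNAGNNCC on the transcript strand found a match in 16 of the 23 replication-dependent genes, in 1 of 16 germline genes (H1f6, which encodes H1t) and in 1 of 8 replacement variants (H2ax, whose transcript runs on for 822 bases after it). Of 21901 protein-coding genes in the annotation, 0.626% held a match. Some annotated replication-dependent transcripts ended within 60 bases of the stem-loop, as in H2bc3 (23 bases), H4c2 (28 bases), H2ac18 and H2ac19 (35 bases each), H2bc22 (38 bases) and H2ac20 (57 bases). Others ran much further, as in H4c3 (454 bases), H3c14 (1167 bases), H4c14 (1257 bases) and H2ac25 (1643 bases). The germline H1f6 transcript ran on for 185 bases. No match was found in H2bc21, an H2B gene with an annotated exon length of 2620 bases. A match is a description of letters, and its absence says only that these letters are not in the annotated transcript.

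Read counts lay mostly in replacement variants. All 47 genes together took 0.0969% (95% exact Clopper-Pearson interval 0.0959 to 0.0978) and 0.0981% (0.0970 to 0.0992) of the counts in mock replicates 1 and 2. In BMH21 replicates 1 and 2 they took 0.100% (0.0990 to 0.1011) and 0.0975% (0.0965 to 0.0985); these intervals cover counting error only. They are too narrow, since most low counts were even numbers and reads were thus not counted independently. Replacement variants held 83.8% and 84.7% of the histone counts in mock and 81.7% and 81.8% in BMH21, although they are only 8 of the 47 genes. Replication-dependent genes held 12.7% and 11.8% in mock, and germline genes 3.50% and 3.48%. Whether the mRNA kit selected poly(A) tails is not stated in the labels, and a low level of a stem-loop mRNA cannot be told apart from its poor capture.

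Levels were compared between genes as CPM (counts scaled to a common library size with TMM factors) per kilobase of annotated exon. In mock the order at the top was H2az1 (H2A.Z.1) at 124.7 CPM per kb, H3f3b at 90.2 and H3f3a at 66.0 (both encode H3.3), H2ax (H2A.X, the variant phosphorylated at DNA breaks and over the X and Y chromosomes in pachytene) at 29.3, H1f10 (a linker histone variant) at 27.2 and the replication-dependent H2bc21 at 21.8. The median per kb was 28.3 over the replacement variants, 1.51 over the replication-dependent genes and 1.35 over the germline genes. The germline linker histone gene H1f6 was among the weak ones, with 18 and 15 reads in mock and 8 and 10 in BMH21, which is 0.498 and 0.280 CPM per kb. Its 4 libraries did not overlap between the groups, but at this depth the difference did not pass the test (log2 fold change -0.81 ± 0.72 (SE), edgeR adjusted p = 0.453). The genes of the testis forms of H2B and H2A, H2bc1 and H2ac1, stood at 7.56 and 3.43 CPM per kb in mock, and the spermatid linker histone genes H1f9 and H1f7 at 11.8 and 8.53.

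**Figure D1:**
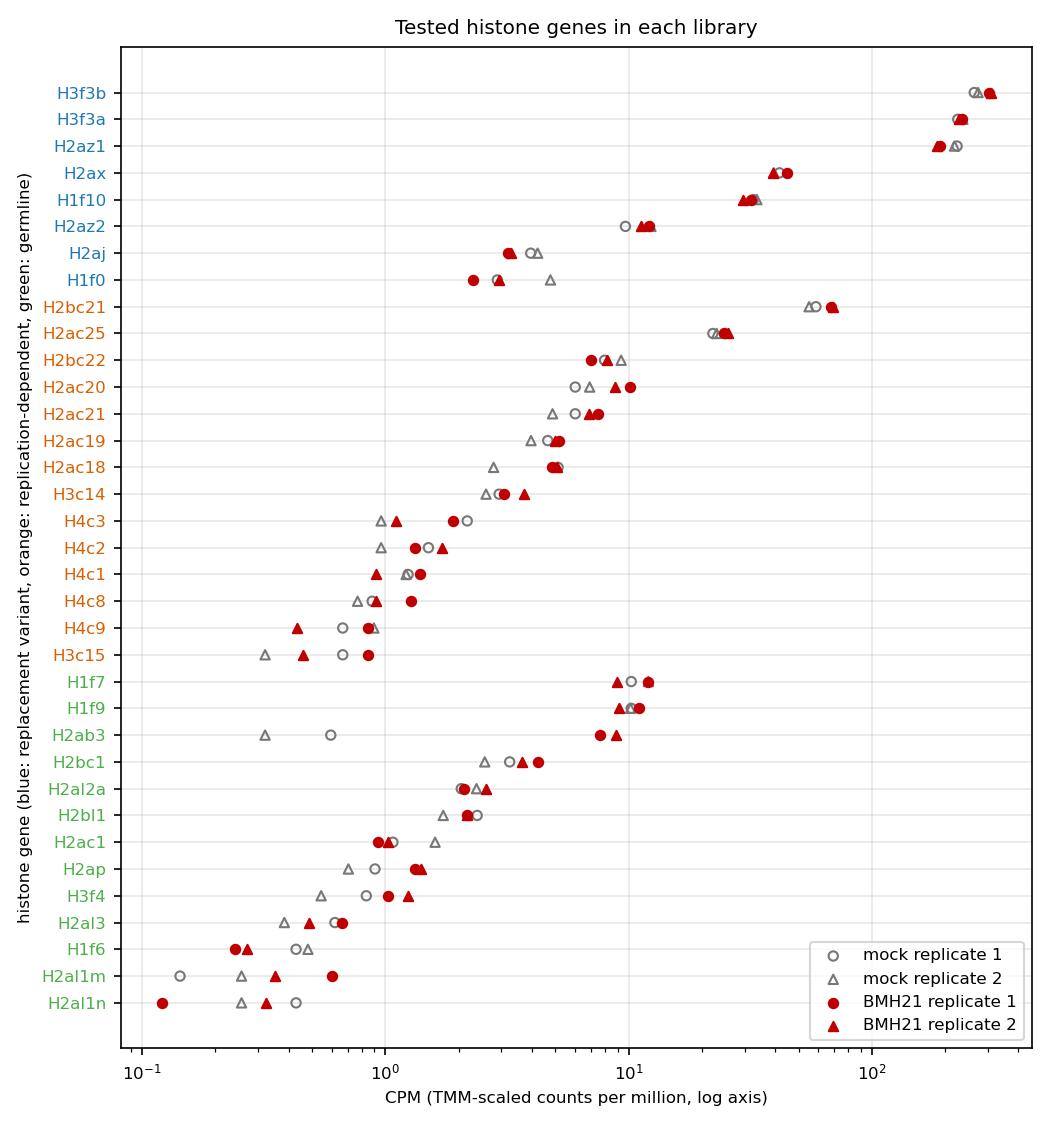
Level of the 35 tested histone genes in each library, in CPM on a log axis, with mock libraries as open grey symbols and BMH21 libraries as filled red ones (circle, replicate 1; triangle, replicate 2). H3f3b, H3f3a and H2az1 lie between 186 and 308 CPM in every library, and H2ab3 is the gene whose groups stand furthest apart.

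Which histone mRNAs differed after the inhibitor was read from BMH21 against mock. Of the 47 genes, 35 passed the filter on low counts and were tested; the other 12 had between 8 and 33 counts over all libraries. They were the replication-dependent H1f3, H2ac22, H2bc3, H2bc4, H2bc13, H2bc27, H3c1, H3c11 and H4c14 and the germline H1f8, H2al1b and H2al1k. Of the 35, 4 rose (H3f3b, H2bc21, H2ac20 and H2ab3), 1 fell (H2az1) and 30 were not called (edgeR's quasi-likelihood test, p adjusted by Benjamini and Hochberg, threshold 0.05). Over all 13793 genes tested, 16.5% were called higher and 12.5% lower, 29.1% in either direction, and the 5 calls among 35 histone genes are to be read against that share. Their median log2 fold change was 0.10, against 0.00 over all tested genes. Low counts limited the test: the SE was above 0.2 on the log2 scale for most genes under 5 CPM, as the bars in the plot of fold changes show. By class, 2 of 14 replication-dependent genes tested rose and 0 fell, with a median log2 fold change of 0.28. Of the 8 replacement variants 1 rose and 1 fell (median -0.05), and of the 13 germline genes tested 1 rose and 0 fell (median 0.10). Because these are sorted cells measured in bulk, fewer cells of a type and less RNA per cell cannot be told apart.

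Other settings are given with the share of all tested genes they called higher and lower. DESeq2 called 4 histone genes higher and 1 lower, against 13.6% and 9.12% of all genes it tested. With upper quartile scaling (13.1% and 18% of all genes), without a filter (14.5% and 10.8%), with a replicate block (15.9% and 11.6%) or with counts halved (17% and 13.1%) the calls were again 4 and 1. With a mean of at least 5 CPM (21.6% and 18.4%) or autosomal genes alone (15.5% and 12.4%) they were 3 and 1, since H2ab3 was no longer among the genes tested. Leaving out mock replicate 2 (12.6% and 8.34%) or BMH21 replicate 2 (13% and 10.1%) gave 4 and 1. Without BMH21 replicate 1 (14.3% and 10.4%) the calls were 3 and 1, and without mock replicate 1 (12.8% and 8.32%) they were 5 and 2.

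**Figure D2:**
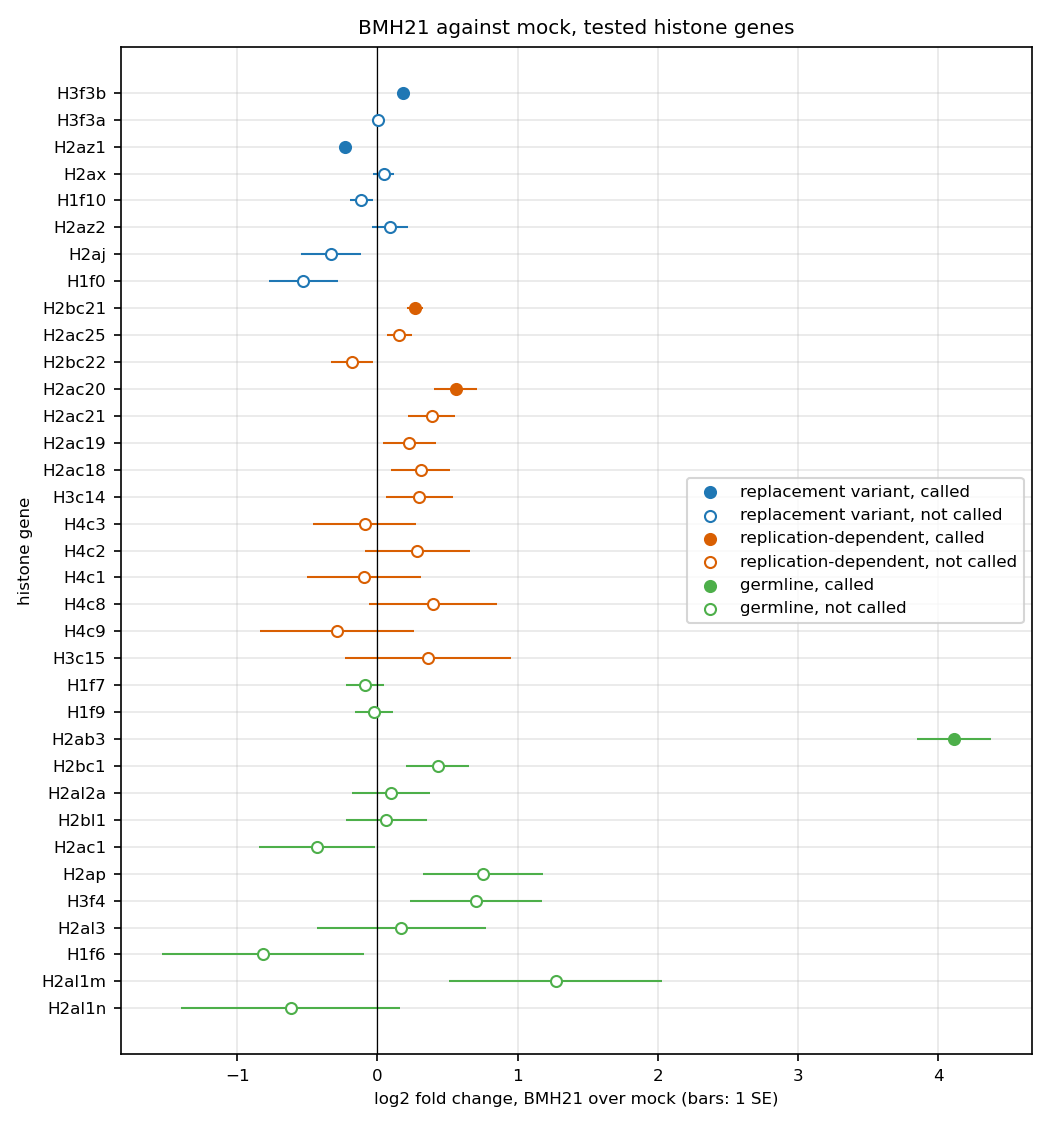
Log2 fold change of BMH21 over mock for the 35 tested histone genes, with bars of 1 SE; filled points were called and open points were not. Called genes lie between -0.23 (H2az1) and 0.56 (H2ac20), except H2ab3 at 4.11.

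For the strongest replacement variants, H3f3b, H3f3a and H2az1, the changes were small and the SE was at most 0.034. H3f3b (ENSMUSG00000016559.15, in GRCm38, as all positions here, on chromosome 11, 116021912 to 116027962, minus strand) was at 263.6 and 273 CPM in mock and at 302 and 308 CPM in BMH21. Both BMH21 libraries lay above both mock libraries, and the gene rose by a log2 fold change of 0.19 ± 0.03 (SE), which is 1.14-fold (edgeR adjusted p = 9.28e-07). H3f3a (ENSMUSG00000060743.13, chromosome 1, 180800832 to 180813943, minus strand), which encodes the same H3.3 protein, was at 225.5 and 237 CPM in mock and 235 and 229 CPM in BMH21. Here the groups overlapped, at 0.01 ± 0.03 (SE) on the log2 scale with edgeR adjusted p = 0.913. The sign turned under upper quartile scaling (-0.04). The ratio of H3f3b to H3f3a counts was 1.17 and 1.16 in the mock libraries and 1.28 and 1.34 in the BMH21 libraries, so the H3.3 transcripts leaned further towards H3f3b with the inhibitor in both replicates; this ratio is given as a description, with no test.

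H2az1 was the only histone gene that fell, in edgeR as in DESeq2; without mock replicate 1, H1f0 fell too (-0.86, edgeR adjusted p = 0.0120). H2az1 (ENSMUSG00000037894.14, chromosome 3, 137864487 to 137866922, plus strand) was at 224 and 219 CPM in mock and at 191 and 186 CPM in BMH21, so the groups did not overlap. It fell by 0.23 ± 0.03 (SE) on the log2 scale, and its level in mock was 1.18 times that in BMH21 (edgeR adjusted p = 6.20e-08). H2az2, the gene of the closely related H2A.Z.2 (chromosome 11, 6427229 to 6444443), was far weaker, at 9.70 and 12.4 CPM in mock and 12.1 and 11.3 CPM in BMH21, and its groups overlapped (0.09 ± 0.13 (SE), edgeR adjusted p = 0.681). That the fall differed from H2az2 was not tested.

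The other 4 replacement variants were not called. H2ax was at 41.7 and 39.5 CPM in mock and 44.8 and 39.1 CPM in BMH21, a difference of 0.04 ± 0.07 (SE) on the log2 scale with edgeR adjusted p = 0.728. The sign of this difference turned under upper quartile scaling (-0.002). H1f10 stood at 32.6 and 33.7 CPM against 31.7 and 29.5 CPM (-0.11 ± 0.08 (SE)). H2aj, which encodes H2A.J, stood at 3.96 and 4.22 CPM against 3.20 and 3.29 CPM (-0.33 ± 0.22 (SE)). H1f0, the gene of the linker histone H1.0 of resting cells, stood at 2.88 and 4.77 CPM against 2.29 and 2.94 CPM (-0.53 ± 0.24 (SE), edgeR adjusted p = 0.101), and its mock replicates differed from each other by more than the group means did. Of the 5 tested linker histone genes, H1f0, H1f6, H1f7, H1f9 and H1f10, all had log2 fold changes below 0 (-0.81 to -0.02). By edgeR 0 were called and by DESeq2 also 0, and 1 passed an unadjusted p under 0.05 in edgeR. The lowest value was that of H1f6, with 18 and 15 counts in mock and 8 and 10 in BMH21. On its BMH21 libraries alone H1f6 would not have passed the filter on low counts. Without BMH21 replicate 2, H1f7 and H1f9 turned above 0 (0.11 each), and so did H1f7 without mock replicate 2 (0.03). The 8 replacement variants summed to 814 ± 13.6 CPM (SD, n = 2) in mock and 816 ± 10.1 CPM (SD, n = 2) in BMH21, with H3f3b higher and H2az1 lower by like amounts.

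All 23 replication-dependent genes together summed to 122 and 115 CPM in mock and to 139 and 139.5 CPM in BMH21, so the groups did not overlap. Their share of the counts differed by a log2 ratio of 0.21. The replicate spread, as the square root of the added variances of both groups, was 0.06 on the log2 scale, and the share was not tested. Of the 7 tested on chromosome 3, 2 were called higher and 0 lower, against 16.5% and 12.5% of all tested genes. The 7 had log2 fold changes from 0.23 to 0.56 with a median of 0.31, but 5 did not pass the test, the libraries of H2ac18 and H3c15 overlapped between the groups, and H2ac18 read -0.04 without mock replicate 2. Of the 6 tested on chromosome 13, 0 were called in either direction by edgeR, 0 by DESeq2 and 0 before adjustment (p under 0.05); their median was -0.09, between -0.29 and 0.39. The chromosome 3 genes summed to 84.4 and 76.7 CPM in mock and to 99.8 and 99.4 CPM in BMH21, with means of 80.5 ± 5.41 and 99.6 ± 0.288 CPM (SD, n = 2). Without H2bc21, the strongest of them, the sums were 25.5 and 21.5 CPM in mock and 31.7 and 29.9 CPM in BMH21. The sum of the chromosome 13 genes was 15.1 ± 0.0558 CPM (SD, n = 2) in mock and 14.5 ± 0.241 CPM (SD, n = 2) in BMH21. The difference between the clusters was not tested. In 6 of the 8 listed chromosome 3 genes, most stretches of 50 bases also occur in transcripts of other genes, on either strand. H2ac18 and H2ac19 are copies of each other, so their values are not independent. H2ac21 shared 64.6% with the antisense gene Gm15444, which overlaps it, and H2ac20 at most 28.9% with any single gene. How far the 6 genes depend on each other was not tested.

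**Figure D3:**
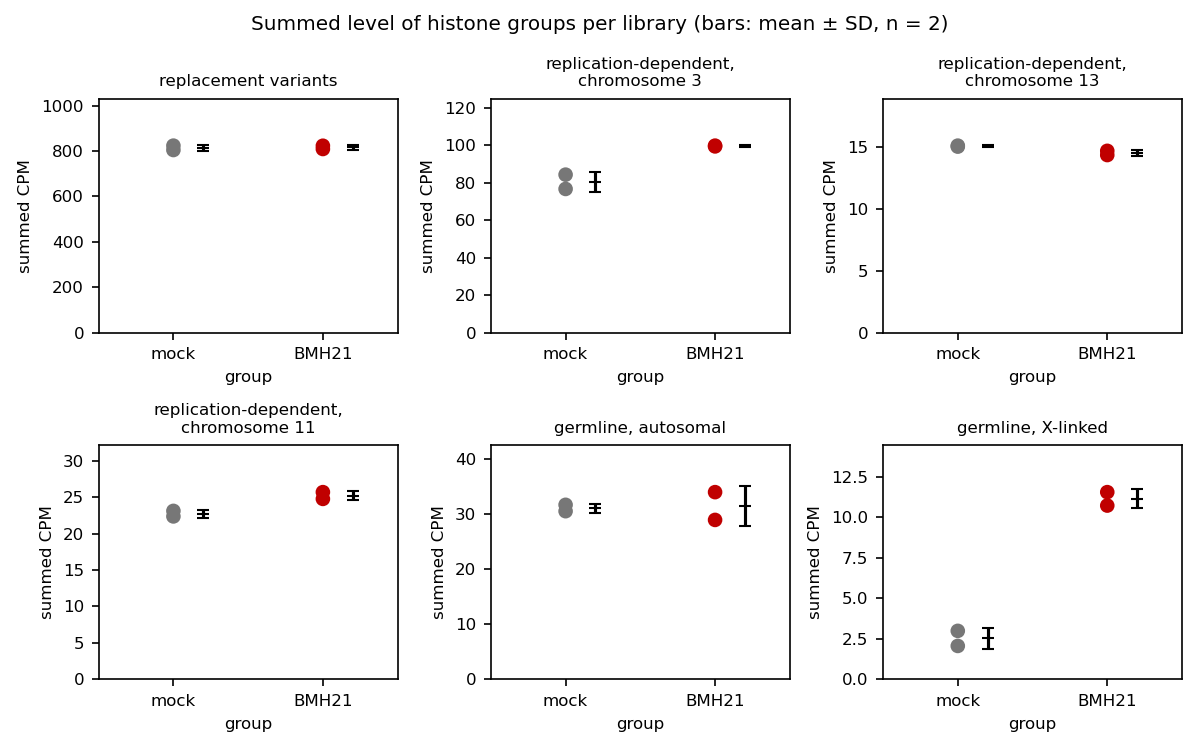
Summed CPM of 6 groups of histone genes in each library (points), with the mean and SD of 2 replicates beside them; every axis starts at 0. The sums of the chromosome 3 and X-linked groups stand furthest apart between mock and BMH21, and those of the replacement variants and the autosomal germline genes overlap.

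Both called genes of the chromosome 3 cluster stand head to head. H2bc21 (ENSMUSG00000068854.8, chromosome 3, 96221119 to 96223738, plus strand) and H2ac20 (ENSMUSG00000068855.4, chromosome 3, 96220361 to 96220880, minus strand), an H2B and an H2A gene with 1 exon each, are transcribed away from each other with 238 bases between their annotated starts. H2bc21 was at 58.9 and 55.2 CPM in mock and 68.1 and 69.5 CPM in BMH21, and H2ac20 at 6.03 and 6.91 CPM in mock and 10.2 and 8.83 CPM in BMH21. Neither gene's groups overlapped. H2bc21 rose by a log2 fold change of 0.27 ± 0.06 (SE), or 1.21-fold (edgeR adjusted p = 1.49e-04). H2ac20 rose by 0.56 ± 0.15 (SE), or 1.47-fold (edgeR adjusted p = 0.00270), and lost its call without mock replicate 1 (0.46, edgeR adjusted p = 0.0562) or BMH21 replicate 1 (0.45, edgeR adjusted p = 0.0629). H2bc21 shares no stretch of 50 bases with another annotated transcript. H2ac20 shares 55.0% of its own and overlaps an annotated antisense gene, Gm44492.

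The promoter window of H2ac20 covers all the bases between that pair, so it is shown here as the region they share. It is chr3:96220831-96221130 on GRCm38.p6, minus strand, from RefSeq, and capitals mark matches, on either strand, to the CCAAT box (CCAAT), to the TATA box (TATAAA) and to the octamer known from H2B promoters (ATTTGCAT).
H2ac20: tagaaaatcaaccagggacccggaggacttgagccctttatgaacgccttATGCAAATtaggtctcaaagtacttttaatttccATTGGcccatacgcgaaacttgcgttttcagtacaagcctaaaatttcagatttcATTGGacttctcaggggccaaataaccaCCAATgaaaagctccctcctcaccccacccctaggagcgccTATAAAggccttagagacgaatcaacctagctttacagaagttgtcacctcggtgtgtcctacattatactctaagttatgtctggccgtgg
The window held 3 matches to CCAAT, 1 to TATAAA and 1 to the octamer, none of them overlapping another. RefSeq windows, each from 250 bases before to 50 after a start, were matched by symbol for 39 of the 47 genes. Of 17 replication-dependent promoters, 82.4% held CCAAT, 58.8% TATAAA and 11.8% the octamer. Over all 32851 promoters of this length the shares were 37.4%, 13.6% and 1.74%. Of the 7 replacement variant promoters 71.4% held CCAAT, 14.3% TATAAA and 14.3% the octamer. Of the 15 germline promoters 53.3% held CCAAT, 26.7% TATAAA and 13.3% the octamer. The octamer stood in few promoters, 2 replication-dependent, 1 replacement variant and 2 germline. The 2 germline windows, of H2bc1 and H2ac1, overlap and hold the same site, so the kinds cannot be ranked by their octamer shares.

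The neighbours of that pair gave like directions without passing the test. H2ac21 (chromosome 3, 96219865 to 96220308) was at 6.03 and 4.86 CPM in mock and 7.46 and 6.88 CPM in BMH21 (log2 fold change 0.39 ± 0.17 (SE), edgeR adjusted p = 0.0745). Its transcript shares 64.6% of its stretches of 50 bases with the antisense gene Gm15444, and the labels do not say whether counting used the strand. H2ac18 and H2ac19 are copies of each other: all stretches of 50 bases in each transcript occur in the transcripts of another gene, also at 100 bases. For H2ac18 the genes that share its sequence include Gm20634 and Gm20633, which overlap it on the same and the opposite strand. H2ac18 was at 5.12 and 2.78 CPM in mock and 4.86 and 5.07 CPM in BMH21, and H2ac19 at 4.65 and 3.97 CPM against 5.16 and 4.97 CPM. The ratio of H2ac18 to H2ac19 went from 1.10 to 0.702 between the mock replicates alone, so the values of each copy are uncertain. H2ac18 was called without mock replicate 1 (0.84, edgeR adjusted p = 0.00946) and read -0.04 without mock replicate 2. The transcript of H3c14 is shared in full with Gm20634, an annotated gene that overlaps it on the same strand. H3c14 stood at 2.93 and 2.59 CPM in mock and 3.08 and 3.73 CPM in BMH21 (0.30 ± 0.24 (SE)). H3c15, another H3 gene shared for the most part, stood at 0.667 and 0.320 CPM against 0.845 and 0.459 CPM (0.36 ± 0.59 (SE)).

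On chromosomes 11 and 13 the measured canonical genes gave no call. H2ac25 (chromosome 11, 58954685 to 58956830), which overlaps exons of Trim17 on the same strand, was at 22.2 and 23.0 CPM in mock and 24.7 and 25.6 CPM in BMH21 (0.16 ± 0.09 (SE), edgeR adjusted p = 0.210). H2bc22 (chromosome 13, 21787461 to 21789213) was at 7.96 and 9.31 CPM in mock and 6.97 and 8.15 CPM in BMH21, with overlapping groups (-0.18 ± 0.15 (SE), edgeR adjusted p = 0.403). The 5 tested H4 genes, H4c1, H4c2, H4c3, H4c8 and H4c9, lay between 0.432 and 2.17 CPM; 0 were called by edgeR, 0 by DESeq2 and 0 passed an unadjusted p under 0.05. All 6 H4 genes together summed to 6.51 and 4.86 CPM in mock and 6.85 and 5.07 CPM in BMH21, and the replicates of a group differed by more than the group means.

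**Figure D4:**
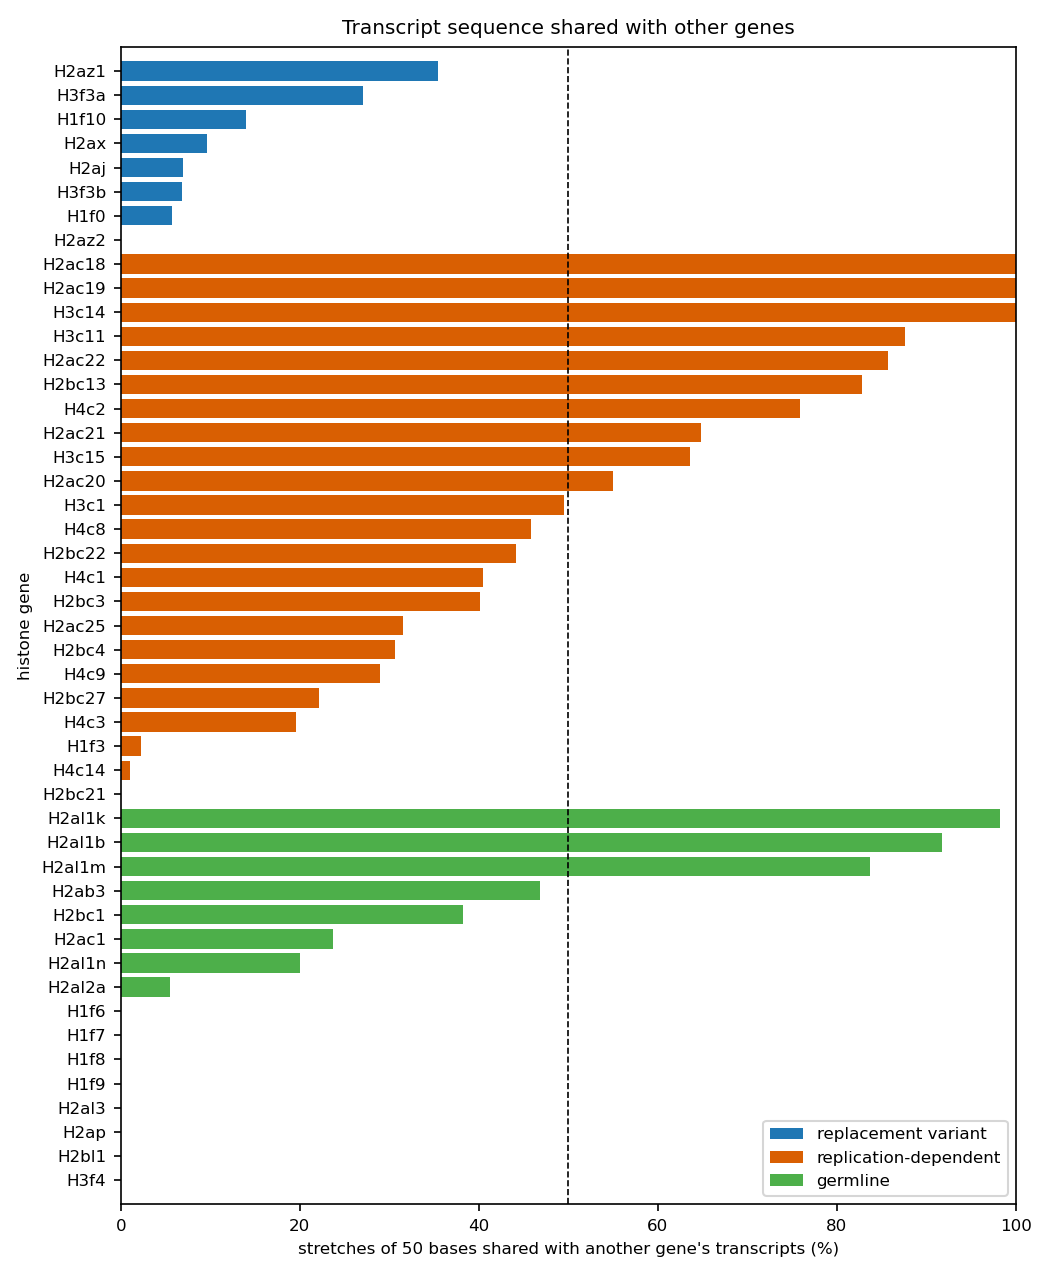
Share of each gene's stretches of 50 bases (all GENCODE M21 transcripts of the gene, in percent) that also occur in transcripts of another gene, on either strand; the dashed line marks 50%. Of the 47 genes, 13 lie above the line, 10 of them replication-dependent and 3 X-linked germline genes, and H2bc21 is at 0.

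Reads of genes that share sequence can be split or lost in ways that depend on how multi-mapping reads were counted, which the labels do not state. By the mark of 50%, 13 of the 47 were counted as near-identical, and 8 of the 13 were tested. The mark takes all other genes together, on either strand, so it does not show a near-identical copy in each case. H2ac20 shared at most 28.9% of its stretches of 50 bases with any single gene, and H2ac21 shared 64.6% with the antisense gene Gm15444. Of these 8, 1 was called (H2ac20). Leaving the 13 out of the count left 3 genes higher and 1 lower. Among the replacement variants the largest shared part was that of H2az1, 35.4%, of which most was shared with an annotated transcript of Tmcc1. Next was that of H3f3a, 27.1%, with 193 other genes that include processed copies, or 15 genes at 100 bases. The most with any single gene, 16.3%, was with Gm17275, an antisense gene that overlaps H3f3a.

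Germline histones held the largest single difference. H2ab3 (ENSMUSG00000083616.4, chromosome X, 120312748 to 120313095, minus strand), 1 of a small family of X-linked genes for H2A.B, a short H2A variant of testis, had 25 and 10 reads in mock and 252 and 329 in BMH21. These are 0.596 and 0.320 CPM in mock and 7.61 and 8.88 CPM in BMH21, so every BMH21 library lay far above both mock libraries. The gene rose by a log2 fold change of 4.11 ± 0.26 (SE), or 17.3-fold (edgeR adjusted p = 1.69e-21), with values from 3.78 to 4.68 when 1 library was left out. The SE is approximate and can be too small for a rise from so few reads. H2ab3 stood near the median log2 fold change of 4.19 over the 343 X-linked genes tested. Only genes that passed the filter on low counts are in that set. Those with few mock reads could pass through BMH21 alone, which favours large rises in the set. Of its stretches of 50 bases 46.8% also occur in H2afb1 or H2afb2, older symbols for 2 further members of its family. Its RefSeq promoter window, chrX:120313177-120313476 on GRCm38.p6, minus strand, is shown because no other histone gene changed as much; it lies upstream of the GENCODE start, and capitals mark CCAAT on either strand, with 2 matches.
H2ab3: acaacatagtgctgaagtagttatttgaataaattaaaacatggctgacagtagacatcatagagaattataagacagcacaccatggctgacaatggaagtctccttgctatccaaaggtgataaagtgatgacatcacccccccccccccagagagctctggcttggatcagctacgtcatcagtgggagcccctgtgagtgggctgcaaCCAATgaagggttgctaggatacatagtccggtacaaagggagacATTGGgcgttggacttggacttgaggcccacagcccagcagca

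Of the other X-linked histone genes 4 were tested, and 0 were called by edgeR, 0 by DESeq2 and 0 before adjustment (p under 0.05). The H2A.L and H2A.P genes are known for expression in spermatids. H2ap was at 0.906 and 0.704 CPM in mock and 1.33 and 1.40 CPM in BMH21 (0.75 ± 0.43 (SE), edgeR adjusted p = 0.198), H2al3 at 0.620 and 0.384 CPM against 0.664 and 0.486 CPM, and H2al1n at 0.429 and 0.256 CPM against 0.121 and 0.324 CPM. H2al1m, near-identical to H2al1k, was at 0.143 and 0.256 CPM in mock and 0.604 and 0.351 CPM in BMH21 (1.27 ± 0.76 (SE), edgeR adjusted p = 0.226), and H2al1b and H2al1k had too few reads for the test. With 6 and 8 counts in mock, H2al1m would not have passed the filter on low counts on its mock libraries alone. Of 343 X-linked genes tested in the study 73.2% were called higher, with a median log2 fold change of 4.19. The limit given above for that set, that some genes could pass the filter through BMH21 alone, holds for both values. Of the 5 X-linked histone genes tested, 1 was called higher, with a median of 0.75. Summed without H2ab3, the 6 genes gave 2.06 ± 0.463 CPM (SD, n = 2) in mock and 2.89 ± 0.309 CPM (SD, n = 2) in BMH21. Spermatid markers were present in the sorted cells at 248 to 258 CPM in sum. Of the 9 markers, 0 were called by edgeR and 0 by DESeq2, and 1 passed edgeR before adjustment (p under 0.05); their part in the levels of the H2A.L and H2A.P genes was not tested.

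Autosomal germline histones gave no call: of 8 tested, 0 were called by edgeR, 0 by DESeq2 and 0 passed an unadjusted p under 0.05. Over all autosomal genes tested 15.1% were called higher and 12.8% lower. The 9 listed summed to 31.2 ± 0.824 CPM (SD, n = 2) in mock and 31.5 ± 3.58 CPM (SD, n = 2) in BMH21. H1f9 was at 10.3 and 10.2 CPM in mock and 11.1 and 9.10 CPM in BMH21 (-0.02 ± 0.13 (SE)), and H1f7 at 10.3 and 12.1 CPM against 12.0 and 8.96 CPM (-0.09 ± 0.14 (SE)). H2al2a stood at 2.05 and 2.37 CPM against 2.11 and 2.59 CPM, and H2bl1, a germline H2B gene, at 2.38 and 1.73 CPM against 2.17 and 2.16 CPM, each with overlapping groups. H3f4, the gene of a testis H3, stood at 0.834 and 0.544 CPM against 1.03 and 1.24 CPM (0.70 ± 0.47 (SE), edgeR adjusted p = 0.295).

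The testis genes H2bc1 (chromosome 13, 23933773 to 23934156, minus strand) and H2ac1 (chromosome 13, 23934462 to 23934851, plus strand) also stand head to head. H2bc1 was at 3.24 and 2.56 CPM in mock and 4.23 and 3.64 CPM in BMH21 (0.43 ± 0.23 (SE), edgeR adjusted p = 0.160). H2ac1 was at 1.07 and 1.60 CPM in mock and 0.936 and 1.03 CPM in BMH21 (-0.43 ± 0.41 (SE), edgeR adjusted p = 0.498). The groups of each gene did not overlap, in opposite directions, and neither passed the test. Their ratio, H2bc1 to H2ac1, was 3.02 and 1.60 in mock and 4.52 and 3.55 in BMH21. The H2bc1 window, chr13:23934107-23934406 on GRCm38.p6, minus strand, is shown for comparison with the H2ac20 window, with the same motifs in capitals; it held 4 matches to CCAAT, 1 to TATAAA and 1 to the octamer.
H2bc1: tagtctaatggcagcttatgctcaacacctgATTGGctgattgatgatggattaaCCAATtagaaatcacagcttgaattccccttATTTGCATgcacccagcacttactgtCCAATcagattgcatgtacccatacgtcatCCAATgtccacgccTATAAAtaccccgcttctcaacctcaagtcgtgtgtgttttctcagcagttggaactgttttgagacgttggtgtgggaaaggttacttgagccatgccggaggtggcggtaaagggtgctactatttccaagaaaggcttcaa

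Other genes that make and handle histones were counted beside the 16.5% called higher and 12.5% called lower over all tested genes. Of 14 genes of histone mRNA transcription and 3′ end formation tested, 2 rose and 2 fell, near those shares. Npat, the coactivator of replication-dependent histone genes, was at 64.6 and 61.6 CPM in mock and 92.3 and 98.7 CPM in BMH21 and rose by a log2 fold change of 0.60 ± 0.05 (SE, edgeR adjusted p = 3.34e-15). Eri1, an exonuclease that trims the histone stem-loop end, was at 8.10 and 7.68 CPM in mock and 3.83 and 4.37 CPM in BMH21 and fell by 0.94 ± 0.17 (SE) on the log2 scale (edgeR adjusted p = 9.77e-06). The X-linked cleavage factor gene Cstf2 rose by 2.59, and Srrt, of the cap-binding complex, fell by 0.15. Of 25 histone chaperone genes tested, 7 rose and 6 fell, against the same shares of 16.5% and 12.5%, with a median log2 fold change of 0.01. The X-linked Rbbp7 rose from 0.343 ± 0.122 to 13.7 ± 0.358 CPM (SD, n = 2), Npm1 rose by 0.23, and Hjurp, the chaperone of the centromeric H3, fell by 0.34. Rbbp7 had 18 and 8 counts in mock and 462 and 498 in BMH21. On its mock libraries alone it would not have passed the filter on low counts. Of the HIRA complex, a complex that deposits H3.3, Ubn2 fell by 0.52 and Ubn1 rose by 0.31, while Hira (-0.02) and Cabin1 (0.19) were not called. Daxx, from the same chaperone list, fell by 0.12 (edgeR adjusted p = 0.012). Ubn1, Hira, Cabin1 and Daxx were named after their values were seen.

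Markers of S phase and of the spermatid exchange of histones were read beside the canonical genes. Of 20 S phase genes tested, 6 rose and 1 fell, against 16.5% and 12.5% of all tested genes. E2f1, 1 of the 6, had 9 and 4 counts in mock and 26 and 20 in BMH21. On its mock libraries alone it would not have passed the filter on low counts. By DESeq2 3 rose and 1 fell, against 13.6% and 9.12%. In edgeR the replication helicase genes Mcm4 and Mcm5 rose by 1.42 and 0.39 and the cyclin gene Ccne2 by 0.95 on the log2 scale, and Rrm1, of ribonucleotide reductase, fell by 0.15. The part of S phase in the difference of the chromosome 3 genes was not tested. None of the 5 transition protein and protamine genes was called, with 0 also by DESeq2 and 1 before adjustment in edgeR (p under 0.05), and they summed to 184 and 182 CPM in mock and 192 and 191 CPM in BMH21. Macroh2a1, a histone outside the name rule, stood at 93.6 and 94.7 CPM in mock and 94.0 and 94.8 CPM in BMH21.

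Markers of the sorted cells and of other testis cells were read in the same way, again beside the 16.5% of all tested genes called higher and 12.5% called lower by edgeR (13.6% and 9.12% by DESeq2). All 12 pachytene markers were measured, with a sum of 8358 to 8654 CPM over the libraries, and 4 rose and 5 fell (3 and 3 by DESeq2). The 8 spermatogonial markers in the table summed to 18.7 and 19.6 CPM in mock and 14.7 and 17.0 CPM in BMH21, and 2 of 6 tested fell (1 by DESeq2). The 6 preleptotene and leptotene markers, of which Spo11 and Sycp2 are also made at pachytene, summed to 741 and 736 CPM against 655 and 685 CPM, and 4 of 6 fell (2 by DESeq2); their part in the histone results was not tested. Sertoli, Leydig, peritubular, and macrophage and blood markers summed to at most 9.54 CPM per list in any library, and 1 of them, the Leydig marker Star, fell. These sums cover only 2 of 8 Sertoli, 3 of 5 Leydig and 5 of 7 macrophage and blood markers, since the others were not listed.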

How the data were processed

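Sorted cells gave TRIzol RNA for stranded mRNA libraries, per the labels' protocols. The submitters' processing notes name Fastp, STAR, SAMtools, featureCounts, DESeq2 and the build mm10, without versions, settings or order. The authors deposited raw read counts per gene for 15733 protein-coding genes with at least 4 counts in total, and these entered every test. The table also holds signal (counts divided by the authors' size factor of each library), the authors' log2 fold changes, their Wald score and the authors' p-values, none of which entered a test; the authors' log2 fold changes differed from those of DESeq2 run here by at most 2.83e-05.

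Libraries held 30964370 to 41548269 counts. Between 78.2% and 80.1% of the values from 1 to 10 were even numbers, so reads were not counted as independent single events, and counting error at a given count is larger than for independent reads. The cause is not stated in the labels.

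Genes were kept by filterByExpr (minimum count 10), scaled by TMM and tested with edgeR 4.0.16 (R 4.3.3, quasi-likelihood test, group alone), with Benjamini-Hochberg adjustment over 13793 genes and a threshold of 0.05. The SE is the size of the log2 fold change divided by the square root of F. P-values rest on 2 replicates a group and a spread pooled over genes. DESeq2 1.42.0, another scaling, other filters, a replicate block and leaving out each library were alternatives. Positions are those of GENCODE M21 (GRCm38), taken by gene identifier for all 47 genes, since the positions in the table differ from it. Promoters are from RefSeq (GRCm38.p6). Shared sequence was counted over stretches of 50 and 100 bases of the GENCODE transcripts.

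The members, classes and lists were chosen with earlier results of these data known. The naming rule took called members, the 12 with the highest CPM, the 3 highest of each class and near-identical pairs, and up to 4 called genes of each other list. Further members, Macroh2a1 and the marker genes in the text were named after their values were seen.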

Additional observations from a re-analysis of the deposited data

How the results depend on the processing

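Counts of called histone genes under each setting stand in the report. Those with autosomal genes alone and with counts halved were added after seeing the data. Leaving out the 13 genes above the mark of 50% shared sequence gave 3 higher and 1 lower. Leaving out 1 library gave 3 to 5 higher and 1 to 2 lower; without mock replicate 1, H1f0 (-0.86), H2ac18 (0.84) and H2ac21 (0.56) were also called and H2ac20 was not, nor was it without BMH21 replicate 1. Over 15 named genes and 161 alternatives, 148 kept direction and side of the threshold; the cause of the other changes was not tested. Signs turned in genes not called: under upper quartile scaling, which shifted all genes by a median of -0.05, for H2ax (-0.002) and H3f3a (-0.039), and over the fits that left out 1 library for H1f7 (-0.312 to 0.109, with 0.030 without mock replicate 2), H1f9 (-0.168 to 0.110), H2ac18 (-0.044 to 0.837), H2ax (-0.058 to 0.137), H2az2 (-0.079 to 0.267) and H3f3a (-0.026 to 0.042, with -0.014 without BMH21 replicate 1). The log2 ratio of count shares, BMH21 over mock, was -0.025 for replacement variants and -0.123 without H3f3b, since a member was removed. For germline genes it was 0.313, and 0.486 without H1f7. Without H2ab3 the germline genes summed to 33.0 and 33.5 CPM in mock and to 37.2 and 31.7 CPM in BMH21, so the groups overlapped. Deviations from the group mean correlated at 0.0105 over the tested genes between mock replicate 1 and BMH21 replicate 1. With 2 libraries a group the other pair is the mirror of this one and adds nothing. The value cannot tell whether same-numbered replicates share an animal or a preparation. With the replicate block the calls were 4 higher and 1 lower. Depth limits genes under about 5 CPM, where only large changes could pass.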
